A study of Mus musculus with 6 samples.

Results

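The genes described here are 10 genes around the liver X receptors (LXRs) and cholesterol efflux, which were taken by gene symbol from a table of 54532 mouse genes. They are the receptors Nr1h3 (LXRα) and Nr1h2 (LXRβ), the efflux transporters Abca1 and Abcg1, the apolipoproteins Apoe and Apoc2, and the LXR target genes Mylip, Lpcat3, Lpl and Pltp. Transcript levels came from RNA-seq of primary bone-marrow-derived macrophages (BMDMs) of wildtype C57BL/6 mice, matured in medium conditioned by L929 cells. Of 6 libraries, 2 came from untreated BMDMs, 2 from BMDMs stimulated with lipopolysaccharide (LPS, 100 ng/ml) for 2 h, and 2 from BMDMs that were kept in metformin (5 mM, 6 h) and then given LPS in the same way (Met + LPS). LPS is a cell wall component of Gram-negative bacteria sensed by the receptor TLR4, and metformin is a diabetes drug that activates AMP-activated protein kinase. There was no group with metformin alone, so the effect of metformin was measured only on top of LPS. The cells were seeded in duplicate, and nothing in the labels says that the libraries of a group came from separate mice, so the p-values measure only the spread between these libraries.

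LXRs are nuclear receptors that bind oxysterols and other sterol intermediates. They pair with a retinoid X receptor (RXR) and switch on genes that lower the cholesterol content of the cell. In macrophages these targets load cholesterol onto apolipoprotein acceptors, limit the uptake of lipoprotein cholesterol, and remodel phospholipids and lipoproteins, while ligand-bound LXRs are also known to restrain inflammatory genes.

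The libraries held between 25457016 and 30762755 reads on genes, as recovered from the deposited TPM values, a unit that divides reads by gene length and brings every library to the same total. All 6 macrophage markers examined were expressed, and together they reached 43656 and 45549 TPM in the untreated libraries, 35243 and 34504 TPM after LPS, and 28748 and 28871 TPM after Met + LPS. Most of this sum was Lyz2, with 33981 and 35844 TPM untreated, and the single markers did not all move like it. After LPS, 4 of the 6 were lower in TPM in limma, of which 3, Cd68, Itgam and Lyz2, had the opposite sign after rescaling. Adgre1 was higher (0.15, adjusted p = 0.00599), and Fcgr1 was at -0.003 with no call. In Met + LPS vs. LPS, 4 were lower, and Cd68 (0.003) and Csf1r (-0.07) had no call. Of the 4, Fcgr1 was lowest at -1.14 (adjusted p = 5.1e-05 in limma), and Adgre1 was at -0.34, Lyz2 at -0.33 and Itgam at -0.31. Of 30 markers of other cell types, 6 were at 0 in every library and 6 reached 1 TPM in at least 2 libraries. These were 4 neutrophil and 2 dendritic cell markers. The summed neutrophil markers lay between 24.4 and 30.9 TPM without metformin and at 42.0 and 40.2 TPM after Met + LPS. In Met + LPS vs. LPS, S100a8 was at 0.46, S100a9 at 0.61, Mpo at 0.54 and Elane at 0.83 on the log2 scale. None of them was called in limma on TPM, with adjusted p-values from 0.0188 to 0.161. With limma voom on the recovered reads, Mpo (0.83, adjusted p = 0.00514) and Elane (0.92, adjusted p = 0.000723) were called higher. S100a8 (adjusted p = 0.115) and S100a9 (adjusted p = 0.0447) had no call in voom. Against the untreated libraries, Mpo and Elane overlapped, and S100a8 and S100a9 lay above. The part of either shift in the summed markers in the results below was not tested. The adipocyte markers, which belong to a cell type rich in Lpl, did not exceed 0.0952 TPM in sum. In bulk RNA, fewer cells of a type and less RNA per cell cannot be told apart.

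LPS left Abca1 near its untreated level, while Abcg1 and Mylip were much lower after LPS. The other 6 genes with measurable transcripts, which were Nr1h3, Nr1h2, Apoe, Lpcat3, Lpl and Pltp, were lower by smaller amounts. Of the 9 members that could be tested, 0 were higher and 8 were lower at an adjusted p-value under 0.01 in limma with Benjamini-Hochberg adjustment. Among all 12755 genes tested, 16.2% were higher and 60.1% were lower by the same rule, so a lower value was common in this comparison. In the same 8 members both LPS libraries lay below both untreated libraries, as they did in 71.5% of all tested genes, while 20.1% had both LPS libraries above. The median log2 fold change was -0.41 over the 9 members and -0.48 over all tested genes. At an unadjusted p under 0.05, and with limma voom on recovered reads, the counts were also 0 and 8. The study's cut-off was a log2 fold change of 2 or more in either direction together with the adjusted p-value. Applied here, Abcg1 passed it in the lower direction and 0 members in the higher, as did 2.37% and 3.72% of all tested genes. The study used it with DESeq2 on read counts and not with limma on TPM, so the calls are unlike in measure. After the rescaling described next, Abcg1 was at -1.62 and 0 members passed.

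The direction of the smaller LPS differences depended on how the libraries were scaled. When a library's values were divided by their median ratio to each gene's geometric mean over the 6 libraries, the median of all tested genes moved to -0.05 and 3 members were higher and 2 lower, against 0 and 8 in TPM as deposited. Over all genes the split moved in the same way, from 2069 higher and 7665 lower to 3718 and 3764. Abcg1 and Mylip were lower on both scales. Abca1, Lpcat3 and Lpl were higher after LPS on the rescaled values, and Nr1h3, Nr1h2, Apoe and Pltp had no call there. The plot of the LPS response on both scales shows each member on both.

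**Figure D1:**
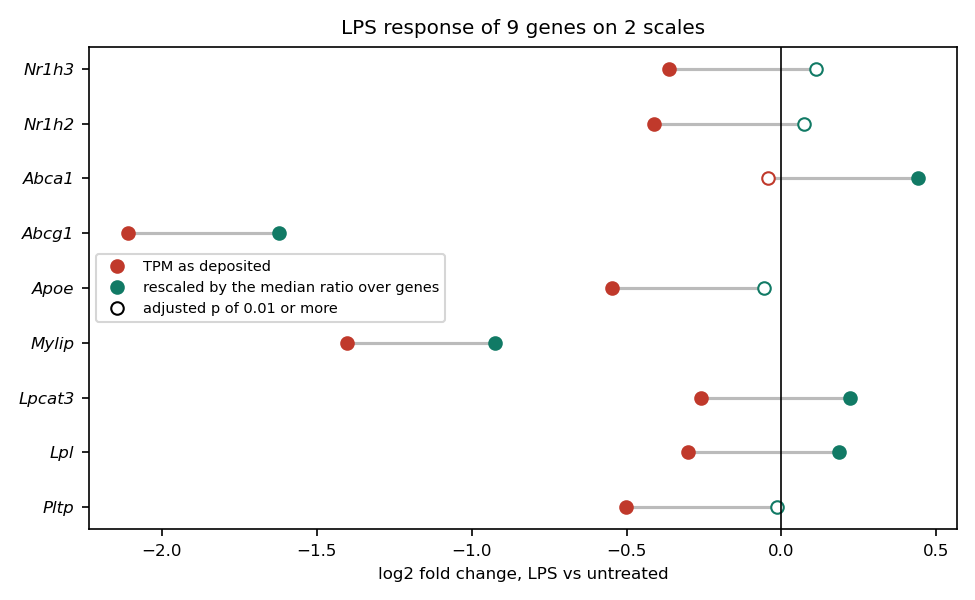
Log2 fold change of LPS vs. untreated on the x axis for the 9 tested genes, in TPM as deposited (red) and rescaled by the median ratio (green), with open circles for an adjusted p of 0.01 or more. Abcg1 (-2.11 and -1.62) and Mylip (-1.40 and -0.92) are lower on both scales, and 5 genes cross 0 between the scales.

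Metformin pretreatment moved Mylip most among the members, to 3.30 times its level after LPS alone, and Abca1 was also higher, at 1.22 times. Lpcat3, Pltp and Lpl were lower than after LPS alone. Nr1h2 and Abcg1 had overlapping libraries in this comparison. In limma 2 members were higher and 3 lower at an adjusted p-value under 0.01, where 14.5% and 18% of all tested genes were called higher and lower. Without regard to the test, both Met + LPS libraries lay above both LPS libraries for 3 members and below them for 4, against 33.8% and 40% of all tested genes. Past the study's cut-off for this comparison, a log2 fold change of 0.7 or more in either direction, were Mylip in the higher and Lpcat3 in the lower direction, among 4.19% and 4.09% of all tested genes. The median log2 fold change was 0.01 over the members and -0.03 over all tested genes, and rescaling left the same counts of 2 higher and 3 lower. The LPS libraries enter both comparisons, so the changes are given side by side below and no relation between them was computed.

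**Figure D2:**
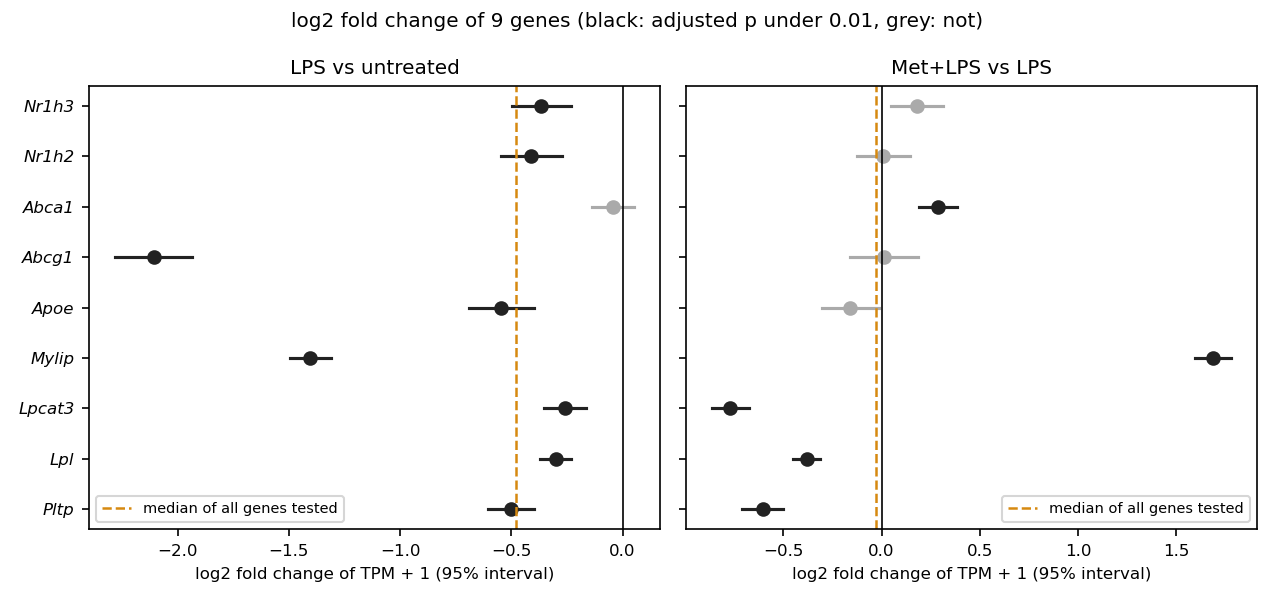
Log2 fold change of TPM + 1 with its 95% interval (x axis) for the 9 tested genes in LPS vs. untreated (left) and Met + LPS vs. LPS (right), with the median of all tested genes as a dashed line at -0.48 and -0.03. Black points have an adjusted p under 0.01 in limma, as 8 genes do on the left and 5 on the right.

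The receptors themselves were expressed in every library, Nr1h2 above Nr1h3 in TPM. Nr1h3 (ENSMUSG00000002108, GRCm38 chr2:91184061-91202834, minus strand), the LXR enriched in macrophages, liver and fat, had 43.4 and 40.2 TPM in the untreated libraries, 31.7 and 32.8 TPM after LPS, and 37.8 and 35.6 TPM after Met + LPS. The groups did not overlap, and the Met + LPS libraries lay between the other pairs. LPS vs. untreated gave a log2 fold change of -0.36 (95% interval -0.50 to -0.23, adjusted p = 0.000726 in limma) in TPM and 0.11 (adjusted p = 0.119) after rescaling. In Met + LPS vs. LPS the log2 fold change was 0.18 (0.05 to 0.31), with an adjusted p of 0.0331 that missed the threshold.

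Nr1h2 (ENSMUSG00000060601, chr7:44549616-44553951, minus strand), the LXR present in most tissues, had 101 and 107 TPM in the untreated libraries, 74.6 and 81.7 TPM after LPS, and 76.7 and 80.5 TPM after Met + LPS. Both untreated libraries were above the other 4, and the LPS and Met + LPS libraries overlapped. The log2 fold change of LPS vs. untreated was -0.41 (-0.55 to -0.27, adjusted p = 0.000466 in limma) in TPM, within 0.07 of the median gene, and 0.07 (adjusted p = 0.296) after rescaling. Metformin pretreatment gave 0.01 (-0.13 to 0.15, adjusted p = 0.912 in limma), an interval that measures only the spread between these libraries. The receptor genes can be told apart by short reads, since 100% of the 31-base stretches of Nr1h2 and 99.8% of those of Nr1h3 occurred in no other annotated gene.

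The efflux transporters behaved differently from each other. Abca1 (ENSMUSG00000015243, chr4:53030787-53159895, minus strand), which moves cholesterol and phospholipid onto lipid-poor apolipoprotein A-I, had 90.2 and 92.0 TPM in the untreated libraries, 90.8 and 86.1 TPM after LPS, and 110 and 107 TPM after Met + LPS. The untreated and LPS libraries overlapped, and both Met + LPS libraries lay above the other 4. The log2 fold change of LPS vs. untreated was -0.04 (-0.14 to 0.05, adjusted p = 0.343 in limma), which is 0.44 above the median gene, and it was 0.44 (adjusted p = 7.47e-05) after rescaling. Met + LPS vs. LPS gave 0.29 (0.19 to 0.38, adjusted p = 0.00149) in TPM and 0.30 after rescaling. Without 1 of the Met + LPS libraries, replicate 1, the value was 0.27 and its adjusted p was 0.0119, above the threshold of 0.01.

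Abcg1 (ENSMUSG00000024030, chr17:31057698-31115777, plus strand), which supplies cholesterol to mature HDL particles, had 343 TPM in both untreated libraries, 74.9 and 82.8 TPM after LPS, and 84.8 and 74.4 TPM after Met + LPS. The 4 stimulated libraries lay close together and far below the untreated ones, and the LPS and Met + LPS libraries overlapped. Mean levels were 343 ± 0.219 TPM untreated and 78.8 ± 5.57 TPM after LPS (SD, n = 2 each), a ratio of 4.35. The log2 fold change was -2.11 (-2.28 to -1.93, adjusted p = 7.24e-07 in limma), lower than all but 1.89% of tested genes, and it was -1.62 after rescaling, short of the cut-off of 2. Metformin pretreatment gave 0.01 (-0.16 to 0.19, adjusted p = 0.911).

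Within each library, the ratio of Abcg1 to Abca1 does not depend on the scaling between libraries. It was 3.80 and 3.72 in the untreated libraries, 0.825 and 0.962 after LPS, and 0.773 and 0.697 after Met + LPS. In TPM, Abcg1 was thus above Abca1 before LPS and below it in all 4 stimulated libraries. Which gene is above the other also depends on the gene lengths used for TPM, while the change of the ratio does not.

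LXR with RXR binds pairs of the letters AGGTCA in the same direction with 4 bases between them, an element called DR4. The 250 bases before the start site were taken from RefSeq promoter windows (GRCm38.p6, strand of the gene), which were found for 8 of the 10 members in 11 windows. They are shown for the 2 members that rose after metformin pretreatment, Abca1 and Mylip.
Abca1, chr4:53159896-53160145, minus strand: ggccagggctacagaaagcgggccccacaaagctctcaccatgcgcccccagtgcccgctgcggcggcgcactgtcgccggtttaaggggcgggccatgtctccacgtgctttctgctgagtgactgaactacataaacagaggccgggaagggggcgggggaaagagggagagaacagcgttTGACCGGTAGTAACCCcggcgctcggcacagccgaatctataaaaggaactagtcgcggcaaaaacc
Mylip, chr13:45389492-45389741, plus strand: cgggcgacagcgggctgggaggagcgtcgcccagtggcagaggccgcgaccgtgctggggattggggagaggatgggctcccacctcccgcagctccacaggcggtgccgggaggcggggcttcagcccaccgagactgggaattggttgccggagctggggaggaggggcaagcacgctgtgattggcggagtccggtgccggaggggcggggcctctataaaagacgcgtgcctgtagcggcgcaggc
The capitals mark the place in Abca1 that is nearest to the DR4 letters. Read on the opposite strand it is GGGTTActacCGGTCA, at chr4:53159947-53159962 and starting 67 bases before the start site, with the half-sites in capitals and 3 mismatches in the 12 fixed letters. With at most 2 mismatches, on both strands and over 250 bases before to 50 after the start site, 0 of the 11 member windows held a match, against 3.02% of all 32851 windows. With 3 mismatches, an allowance chosen after seeing that result, 1 of the 11 did, against 21.9% of all windows. The match is a description of these letters only, and its absence from the other windows says nothing of elements elsewhere.

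The apolipoproteins were at opposite ends of the range. Apoe (ENSMUSG00000002985, chr7:19696109-19699188, minus strand), a secreted acceptor of cellular cholesterol and ligand of lipoprotein receptors, had 2595 and 2549 TPM in the untreated libraries, 1657 and 1874 TPM after LPS, and 1619 and 1538 TPM after Met + LPS. The 3 groups did not overlap, although the higher Met + LPS library lay close to the lower LPS library. LPS vs. untreated gave a log2 fold change of -0.55 (-0.69 to -0.40, adjusted p = 0.000159 in limma) in TPM, 0.06 below the median gene, and -0.06 (adjusted p = 0.441) after rescaling. In Met + LPS vs. LPS the value was -0.16 (-0.31 to -0.01, adjusted p = 0.0717), and in a fit of recovered reads with limma voom it was -0.16 with an adjusted p of 0.00451. Without LPS replicate 1, the lower of the LPS libraries, the value was -0.25 with an adjusted p of 0.00954, and without LPS replicate 2 it was -0.07 with an adjusted p of 0.253.

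Apoc2 (ENSMUSG00000002992, chr7:19671579-19677941, minus strand), the cofactor that activates lipoprotein lipase, had 0.162 TPM in untreated replicate 1, which was 1 read, and 0 reads in the other 5 libraries. Apoc2 did not reach 1 TPM in 2 libraries, so it was not tested and no fold is given. A count of 0 allows a level of up to 3 reads, between 0.417 and 0.515 TPM if reads from all its exon bases were counted. Of its 813 exon bases, 79.5% are shared with Gm44805, a gene annotated on the same strand. Reads from those bases could not be assigned to Apoc2 alone, and how such reads were counted is not given in the sources used here. If they were left out, the limit would be higher.

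Mylip (ENSMUSG00000038175, chr13:45389742-45412022, plus strand) encodes the ubiquitin ligase IDOL, which limits the uptake of lipoprotein cholesterol. It had 79.2 and 77.8 TPM in the untreated libraries, 28.6 and 29.5 TPM after LPS, and 96.8 and 94.8 TPM after Met + LPS. The groups were far apart, with the LPS libraries lowest and the Met + LPS libraries above the untreated ones. Means were 78.5 ± 1.02 TPM, 29.1 ± 0.661 TPM and 95.8 ± 1.41 TPM (SD, n = 2 each). The log2 fold change of LPS vs. untreated was -1.40 (-1.49 to -1.31, adjusted p = 2.46e-07 in limma) and -0.92 after rescaling. Met + LPS vs. LPS gave 1.69 (SE 0.0376, adjusted p = 4.41e-06), above 99.5% of all tested genes, and 1.70 after rescaling. Within libraries the ratio of Mylip to Abca1 was 0.878 and 0.846 untreated, 0.315 and 0.343 after LPS, and 0.883 and 0.888 after Met + LPS, so that relative to Abca1 the Met + LPS libraries lay next to the untreated ones.

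Lpcat3 (ENSMUSG00000004270, chr6:124663027-124704418, plus strand), an enzyme that puts polyunsaturated chains into membrane phospholipids, had 66.8 and 67.6 TPM in the untreated libraries, 56.2 and 55.8 TPM after LPS, and 31.7 and 33.1 TPM after Met + LPS. The groups did not overlap, and the step from LPS to Met + LPS was the larger one. The log2 fold change was -0.26 (-0.35 to -0.17, adjusted p = 0.000733 in limma) for LPS vs. untreated in TPM, 0.22 above the median gene and 0.22 (adjusted p = 0.00214) after rescaling. It was -0.77 (-0.86 to -0.68, adjusted p = 2.95e-05) for Met + LPS vs. LPS, among the lowest 3.72% of tested genes, and -0.76 after rescaling. Of its exon bases, 10.2% are also in Emg1 on the opposite strand.

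Lpl and Pltp encode secreted proteins that act on lipoproteins, and both were above at least 98.7% of the tested genes in every group. Lpl (ENSMUSG00000015568, chr8:68880491-68907448, plus strand), the lipase that frees fatty acids from triglyceride-rich lipoproteins, had 1671 and 1709 TPM untreated, 1375 and 1369 TPM after LPS, and 1045 and 1060 TPM after Met + LPS. Its groups did not overlap, with untreated highest and Met + LPS lowest. The log2 fold change of LPS vs. untreated was -0.30 (-0.37 to -0.23, adjusted p = 8.46e-05 in limma) in TPM and 0.19 (adjusted p = 0.00117) after rescaling, so its direction turned with the scale. Met + LPS vs. LPS gave -0.38 (-0.45 to -0.31, adjusted p = 0.000133) and -0.37 after rescaling.

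Pltp (ENSMUSG00000017754, chr2:164839518-164857711, minus strand), which transfers phospholipid between lipoproteins, had 1566 and 1650 TPM untreated, 1110 and 1161 TPM after LPS, and 762 and 730 TPM after Met + LPS. These groups were also in the order untreated, LPS, Met + LPS without overlap. LPS vs. untreated gave a log2 fold change of -0.50 (-0.60 to -0.40, adjusted p = 4.15e-05 in limma) in TPM and -0.01 (adjusted p = 0.794) after rescaling. Met + LPS vs. LPS gave -0.61 (-0.71 to -0.50, adjusted p = 9.32e-05) and -0.60 after rescaling. Of the exon bases of Pltp, 19.3% are shared with Ctsa on the opposite strand, and whether the counting used strand is not given in the sources used here.

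**Figure D3:**
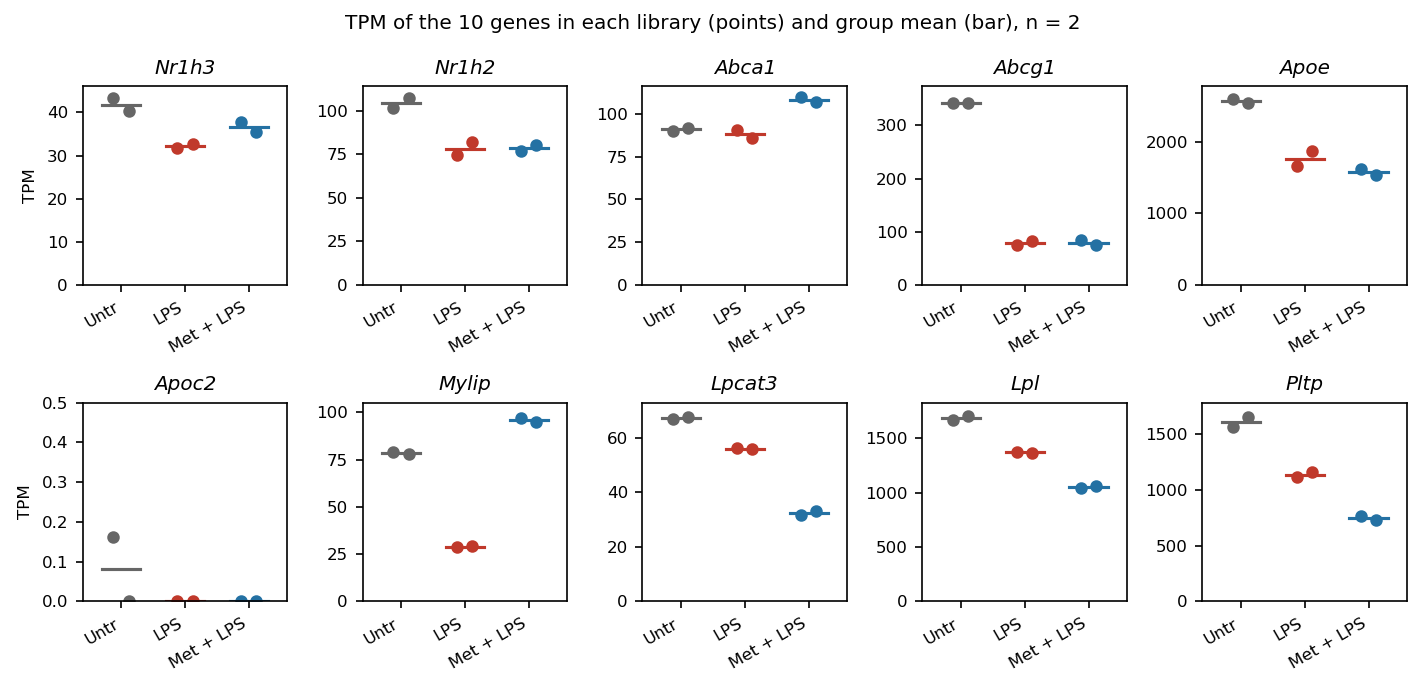
TPM (y axis, from 0) of the 10 genes in each library (points) and the mean of each group (bar, n = 2) for untreated (Untr), LPS and Met + LPS. Abcg1 stands at 343 TPM in both untreated libraries and between 74.4 and 84.8 TPM in the 4 others, Mylip falls to 28.6 and 29.5 TPM in the LPS libraries, and Apoc2 has 1 read in a single library.

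In TPM, the untreated order was Apoe, Lpl, Pltp, Abcg1, Nr1h2, Abca1, Mylip, Lpcat3 and Nr1h3, with no overlap between neighbours. TPM divides by a length, and the deposited values fit the length of all annotated exons of a gene. A gene expressed as a shorter transcript would be understated, so the order between genes holds for these values only. Apoe, Lpl and Pltp kept the first 3 places in all groups, from 2572 ± 32.4, 1690 ± 27.0 and 1608 ± 59.6 TPM untreated to 1579 ± 57.3, 1053 ± 10.6 and 746 ± 22.4 TPM after Met + LPS (SD, n = 2 each). After LPS, Abca1 came next and Mylip last of the 9, and Abcg1 and Nr1h2, next to each other in the order, overlapped. After Met + LPS, Mylip followed Abca1, Abcg1 and Nr1h2 overlapped again, and Lpcat3 was last of the 9.

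Set against the untreated libraries, Met + LPS left Abca1 and Mylip higher and 6 members lower at an adjusted p-value under 0.01 in limma, where 16.3% and 58.8% of all tested genes were higher and lower. After rescaling, 3 members were higher and 4 lower, and over all 12755 genes 4000 were higher and 4103 lower. This comparison shares its libraries with the others and adds no independent evidence. Abca1 was at 0.25 (0.15 to 0.34, adjusted p = 0.00108) and Mylip at 0.28 (0.19 to 0.37, adjusted p = 0.000381) on the log2 scale, and both were also higher after rescaling, at 0.74 and 0.77. The lowest values were those of Abcg1 (-2.10), Pltp (-1.11) and Lpcat3 (-1.03), which were lower on both scales. Nr1h3, at -0.18 in TPM (adjusted p = 0.0184), turned to 0.30 (adjusted p = 0.00263) after rescaling, and Nr1h2 went from -0.40 to 0.09.

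Other genes of the pathway were counted in 5 lists. Of 12 LXR partners and coregulators, 11 were tested, and 2 were higher and 9 lower after LPS in TPM, with 2 higher and 8 lower after rescaling. For these and the following lists, the shares of all tested genes were 16.2% higher and 60.1% lower after LPS in TPM, 3718 and 3764 of 12755 genes after rescaling, and 14.5% and 18% for metformin. In Met + LPS vs. LPS, 5 were higher and 1 was lower, and with voom on recovered reads 9 were higher and 1 lower. The list medians were -0.92 and 0.30 in these comparisons, where the medians of all tested genes were -0.48 and -0.03. Tbl1xr1, a part of the corepressor complex that holds nuclear receptors silent, was past the cut-off for metformin, with 52.6 and 49.8 TPM untreated, 17.2 and 16.6 TPM after LPS, and 43.6 and 39.7 TPM after Met + LPS. The heterodimer partners Rxra and Rxrb, named after their values were seen, were lower after LPS on both scales, at -1.70 and -1.36 in TPM and -1.23 and -0.88 rescaled. Rxra went from 35.6 and 34.3 TPM to 10.2 and 9.91 TPM after LPS and 14.9 and 13.6 TPM after Met + LPS, and Rxrb from 52.9 and 52.1 TPM to 18.9 and 20.9 TPM and 30.9 and 29.0 TPM. Met + LPS vs. LPS gave log2 fold changes of 0.46 (adjusted p = 0.00115) for Rxra and 0.57 (adjusted p = 0.000519) for Rxrb in limma.

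Of 19 other LXR target genes, 12 were tested, and 0 were higher and 11 lower after LPS in TPM, against 2 higher and 5 lower after rescaling, where 60.1% of all tested genes were lower in TPM. Metformin pretreatment gave 3 higher and 6 lower, and the list medians were -0.50 for LPS, close to the -0.48 of all tested genes, and -0.28 for metformin, against -0.03. At an unadjusted p under 0.05, and with voom, the LPS counts were 0 and 12. Arl4c, which helps to carry cholesterol to the plasma membrane, had 91.8 and 89.0 TPM untreated, 26.2 and 29.0 TPM after LPS, and 128 and 120 TPM after Met + LPS. Its libraries were thus placed like those of Mylip, lowest after LPS and highest after Met + LPS, at 2.13 on the log2 scale for metformin (adjusted p = 6.25e-06 in limma). Smpdl3a, a phosphodiesterase, was also past the metformin cut-off, at 385 and 369 TPM after LPS and 624 and 628 TPM after Met + LPS. The lipid synthesis genes Scd2 and Fasn were past it in the lower direction. Scd2, a fatty acid desaturase, had 78.4 and 82.2 TPM untreated, 19.1 and 18.0 TPM after LPS, and 7.47 and 6.78 TPM after Met + LPS, and was also the gene of the list past the LPS cut-off in TPM (-2.06), which it missed after rescaling (-1.58). Fasn, the fatty acid synthase, gave -0.94 (adjusted p = 2.13e-05) for metformin.

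Of 8 genes of oxysterol synthesis and clearance, 4 were tested, and 1 was higher and 2 lower after LPS, against 2 higher and 1 lower after rescaling. With metformin pretreatment 0 were higher and 3 lower, or 0 and 4 at an unadjusted p under 0.05 and with voom, where 14.5% and 18% of all tested genes were called. The list medians were -0.31 for LPS and -1.17 for metformin, against -0.48 and -0.03 over all tested genes. Ch25h, which makes an oxysterol ligand of LXR, had 1.46 and 2.17 TPM untreated, 49.6 and 55.0 TPM after LPS, and 38.0 and 39.7 TPM after Met + LPS. Its log2 fold change of TPM + 1 was 4.25 (adjusted p = 3.06e-07 in limma) for LPS vs. untreated, and -0.42 (adjusted p = 0.0276) for metformin. Cyp51, an enzyme of cholesterol synthesis, had 59.1 and 58.9 TPM after LPS and 17.6 and 16.8 TPM after Met + LPS, or -1.72 (adjusted p = 4.43e-06).

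Of 16 genes of cholesterol uptake, storage and movement, 15 were tested, and 4 were higher and 9 lower after LPS, against 7 higher and 5 lower after rescaling. The lower share in TPM was near the 60.1% of all tested genes. Past the LPS cut-off were the scavenger receptors Olr1 (4.90) and Msr1 (2.19) and the sterol transporter Gramd1a (2.30), all of them higher on both scales. Olr1 had only 2 reads in its lowest library and 0.147 and 0.0782 TPM untreated, so that its fold change depends on the added constant of 1 TPM. In Met + LPS vs. LPS, 4 genes of the list were higher and 6 lower, where 14.5% and 18% of all tested genes were, and the list medians were -0.30 for LPS and -0.22 for metformin, against -0.48 and -0.03. The sterol carrier Stard4 was past the cut-off in the lower direction, at -1.25 (adjusted p = 5.74e-05 in limma). The sterol transporter Gramd1b and Soat1, which esterifies cholesterol for storage, passed it in the higher direction. Gramd1b had 54.8 and 53.7 TPM untreated, 58.3 and 54.3 TPM after LPS, and 137 and 136 TPM after Met + LPS. Soat1 had 217 and 212 TPM untreated, 82.4 and 76.7 TPM after LPS, and 143 and 129 TPM after Met + LPS. The Met + LPS libraries thus lay above the untreated ones for Gramd1b and below them for Soat1.

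Of 8 partners of Lpl and Pltp, 4 were tested, and 1 was higher and 2 lower after LPS, against 1 higher and 1 lower after rescaling, counts too small to set apart from the 16.2% and 60.1% of all tested genes. Angptl4, an inhibitor of lipoprotein lipase, was past the LPS cut-off in TPM, with 8.16 and 10.3 TPM untreated and 0.959 and 1.38 TPM after LPS, with a log2 difference of -2.24 (limma, adjusted p = 2.5e-05) and of -1.86 after rescaling. In Met + LPS vs. LPS, 0 of the 4 were called by limma, with 1 higher and 1 lower at an unadjusted p under 0.05 and 0 higher and 1 lower with voom. The list medians were -0.09 and -0.22, against -0.48 and -0.03. For metformin Angptl4 was at -0.71 with an adjusted p of 0.0139, on as few as 5 reads in a library, and voom, which does not add 1 TPM, gave -1.90 (adjusted p = 0.00153). The ratio of mean TPM, LPS to Met + LPS, was 3.60. The plot of the pathway lists shows the tested genes of the 5 lists in both comparisons, except 2 that are in the counts but are not reported singly.

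**Figure D4:**
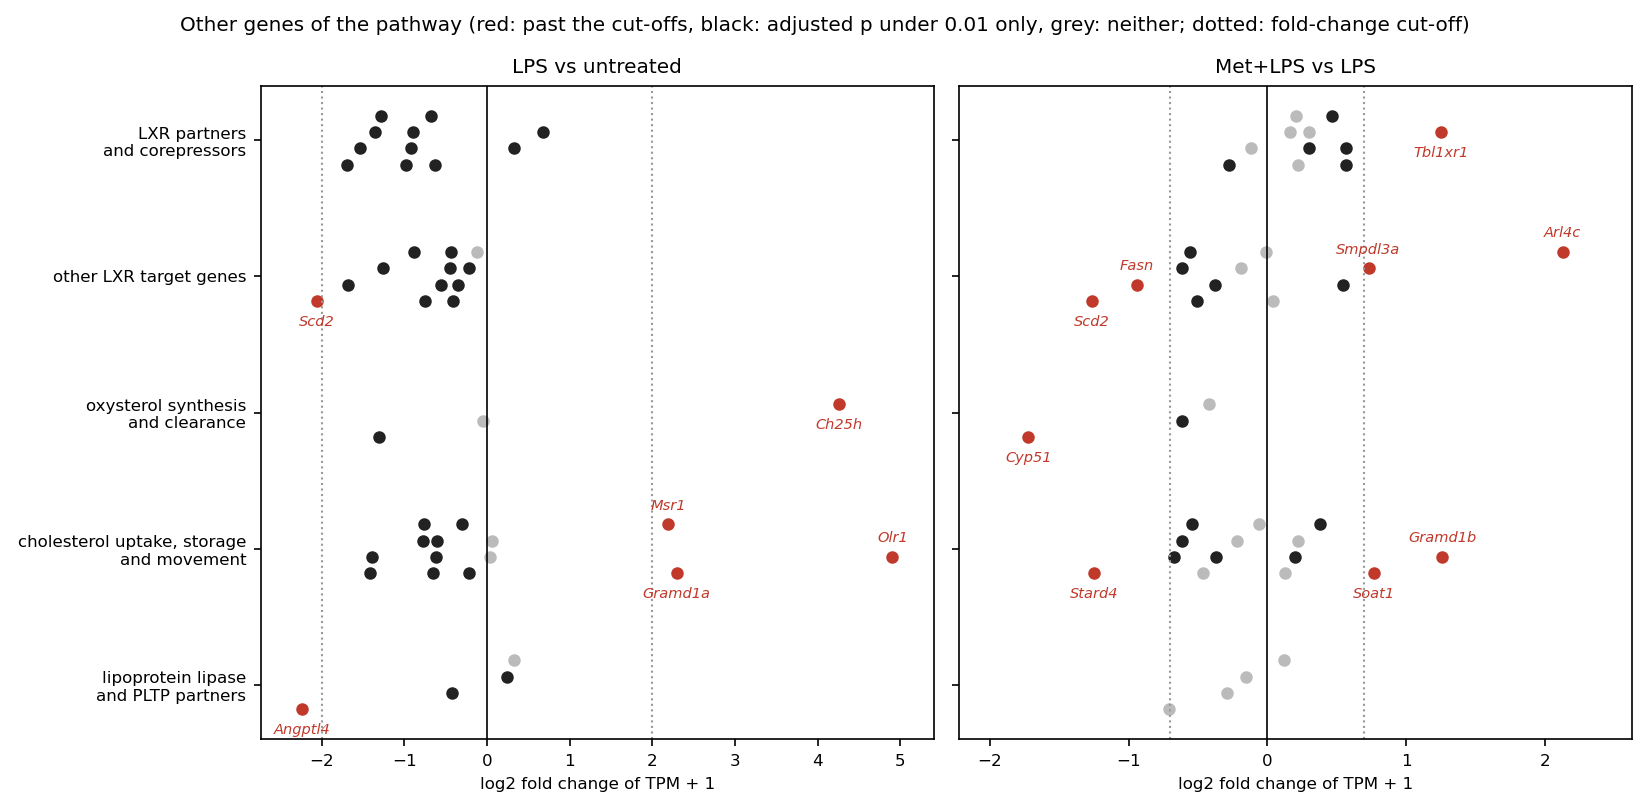
Log2 fold change of TPM + 1 (x axis) of the tested genes in 5 pathway lists (rows), 2 genes left out, for LPS vs. untreated (left, cut-off 2) and Met + LPS vs. LPS (right, cut-off 0.7), with each gene as a point. Red points passed the cut-offs and carry their names, from Olr1 at 4.90 to Angptl4 at -2.24 on the left and from Arl4c at 2.13 to Cyp51 at -1.72 on the right.

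The tested genes whose pattern over the 3 conditions was nearest to that of Abca1, by the Euclidean distance between mean log2(TPM + 1) values centred on each gene's own mean, were Eif3e, Pcbp2, Gm44207, Snrnp27 and Ddx27, at distances from 0.0102 to 0.0180. For Nr1h3 they were Tpt1-ps3, Prdx3, Vps50, Rab28 and Dram2, at distances from 0.00204 to 0.00883. With only 3 conditions many genes lie close to any pattern, and the lists are given as a description.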

How the data were processed

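The deposited values are TPM per gene and library. The authors enriched poly-A RNA, prepared libraries with an Illumina TruSeq kit, sequenced single-end reads, aligned them to GRCm38 with STAR 2.6.1d, used SAMtools 1.9, and counted reads with featureCounts of Subread 1.6.3. How counts became TPM, and how reads on overlapping genes were treated, is not given in the sources used here. The 10 members and the gene lists were chosen with earlier results of these data known.

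Genes reaching 1 TPM in 2 libraries (12755, among them 9 members) entered limma 3.58.1 (R 4.3.3) as log2(TPM + 1), with lmFit and trended eBayes on all 6 libraries, 3 residual degrees of freedom and Benjamini-Hochberg adjustment. Fold changes on this scale understate changes of low genes. The cut-offs were an adjusted p-value under 0.01 and an absolute log2 fold change of 2 (LPS vs. untreated) or 0.7 (Met + LPS vs. LPS). The fit was tested on simulated data in which a limited set of genes changed in both directions. These data held no shift of most genes as seen after LPS, so the test does not bear on the scaling.

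Reads were recovered as whole multiples of a step in TPM times exon length (GENCODE annotation, 54495 of 54532 genes matched), which held for 96.4% to 96.6% of values above 0 within a tolerance of 0.05. Limits from read counts cover counting error only. Named genes were all members, list genes past the study's cut-offs (2 are not reported here), at most 6 a list and comparison by absolute log2 fold change, and the 5 genes nearest in pattern to Abca1 and to Nr1h3. Rxra, Rxrb and the macrophage and neutrophil markers were named outside this rule, after their values were seen. Promoter windows are RefSeq's. Tables were made with Python 3.11.15, numpy 2.4.6 and pandas 2.3.3, and plots with matplotlib 3.10.9. The alternatives were another pseudocount, filter, scaling, cut-off, fit or unit, the replicate number as a block, and each library left out in turn. A comparison of the 2 receptor proteins was not run.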

Additional observations from a re-analysis of the deposited data

How the results depend on the processing

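Each comparison was repeated under 16 alternatives. Another filter, the replicate block, a fit of only the groups compared and eBayes without trend leave a log2 fold change as it is. So does leaving out a library outside the comparison. In these repeats the direction was fixed in advance, and only the call could move. Of 378 repeated log2 fold changes of single members, 360 kept their direction and their side of the adjusted p of 0.01 in limma, 5 lost the call, 2 gained it and 11 changed sign. Rescaling by the median ratio over genes gave 5 members called in LPS vs. untreated and 0 past the study's cut-offs, and turned Nr1h3 (0.11), Nr1h2 (0.073), Abca1 (0.44), Lpcat3 (0.22) and Lpl (0.19) there and Nr1h3 (0.30) and Nr1h2 (0.089) in Met + LPS vs. untreated. A log2 fold-change cut-off of 1 gave 2 members past it for LPS and 1 for metformin. Leaving out each library in turn gave 8 members called for LPS, 4 to 6 for Met + LPS vs. LPS and 7 to 8 for Met + LPS vs. untreated, and in Met + LPS vs. LPS moved Nr1h2 between -0.056 and 0.075 and Abcg1 between -0.081 and 0.11, values near 0 that had no call. With a single library left in a group, that library is assumed to vary like the others. Abca1 in Met + LPS vs. untreated lost its call without untreated replicate 1 (0.23, adjusted p = 0.0129 in limma). With the replicate number as a block the counts were 8, 5 and 8 members, as without the block. Deviations of same-numbered libraries had correlations from -0.004 to 0.03 between groups, so no strong deviation was shared by number. Whether the numbers stand for the same mice or preparation is not given in the labels, and these correlations cannot decide it. With 2 libraries a group, small differences can be missed. Where the duplicates lay close together, small ones were also called, such as Adgre1 at 0.15 for LPS vs. untreated. Such a call measures only the spread between these libraries.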
